A study of Mus musculus with 6 samples.

Results

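Mast cell genes were followed in the inflamed distal colon of Gm31629-/- and WT mice. The 9 genes are Mcpt1, Mcpt2, Mcpt4, Cma1, Cpa3, Tpsb2, Ms4a2, Fcer1a and Hdc, chosen by symbol from the 27546 genes of the deposited table, and all 9 were listed there. Mast cells are tissue-resident granulocytes that bind IgE and, on activation, release granules loaded with proteases, proteoglycan and histamine. In the mouse they are divided by their proteases. Mucosal mast cells of the gut epithelium and lamina propria make the chymases Mcpt1 and Mcpt2. Connective tissue mast cells of the submucosa and muscle layer make Mcpt4, Cma1 (also called mast cell protease 5) and the tryptase Tpsb2. Cpa3 (a carboxypeptidase), Hdc (the enzyme that makes histamine), and Fcer1a and Ms4a2 (the alpha and beta subunits of the high-affinity IgE receptor) were grouped as shared members. Hdc is also used by other myeloid cells and by stomach endocrine cells, and the receptor subunits by basophils.

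The distal colon of 3 Gm31629-/- mice and 3 WT littermates was sequenced by RNA-Seq, and the 6 libraries were treated here as 1 per mouse. The methods speak of pooled RNA, so each SD and each fit that leaves out a mouse rests on that treatment. The mice were 8 weeks old and of the C57BL/6 strain by the labels (C57BL/6J in the methods). Colitis was induced in all of them with dextran sulfate sodium (DSS, which is toxic to the gut lining), given as 3% of the water they drank over 7 days, and tissue was taken on day 8. No untreated mice were included. The knockout is a germline deletion of the long noncoding RNA gene Gm31629, so every cell type of the tissue carries it. Gm31629 itself was not analysed here, so its level could not be used as a check of the labels. Values are FPKM, that is, fragments scaled to the length of the transcript and to the depth of the library. The steps between low values gave estimated depths of 18005600 to 18794900 fragments, and the fragments behind a value were recovered from the same steps. Gm31629-/- mouse 1 stood apart. Its library held Ddx3y, Eif2s3y, Uty and Kdm5d, which are Y-linked, at 2.03 to 15.4 FPKM against 0 in the other 5 libraries, and Xist at 0.00606 against 8.35 to 13.8. The methods name male mice, whereas 5 of the 6 libraries held Xist and none of these Y-linked transcripts. Each tested member is given with and without Gm31629-/- mouse 1, and the part of sex in the results was not tested.

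Genes were compared with limma on log2(FPKM + 1) over the 14657 genes whose mean reached 0.5 FPKM, and a gene was called at an adjusted p under 0.05 with a log2 fold change above 1 or below -1. The mean filter was passed by 5 of the 9 members (Mcpt1, Mcpt2, Cma1, Tpsb2 and Hdc). Of these, Cma1, Tpsb2 and Hdc passed only through the Gm31629-/- mice, where they were high. Hdc alone was called, and it was higher in Gm31629-/- mice. In the same comparison 18.4% of all tested genes were called higher and 4.64% lower, and nothing is read from the count of 1 of 5 members against that share. The group means of Mcpt1 and Mcpt2 were lower in Gm31629-/- mice without passing the test, and the other 7 members had the higher mean there.

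The 4 chymase genes lie in 1 cluster on mouse chromosome 14 (GRCm38, chr14:55941451-56062313). In it Cma1 and Mcpt4 are on the minus strand, and Mcpt1 and Mcpt2 on the plus strand. RefSeq (GRCm38.p6) held promoter sequences for 7 of the 9 members, all but Mcpt2 and Tpsb2. The 250 bases before the RefSeq start are shown for a mucosal chymase, both connective tissue chymases and Hdc, since the results turn on these genes. Capitals mark a match to the GATA motif letters AGATAA or AGATAG and TGATAA or TGATAG on either strand. The windows are Mcpt1 at chr14:56017714-56017963 on the plus strand, and, on the minus strand, Mcpt4 at chr14:56062311-56062560, Cma1 at chr14:55944676-55944925 and Hdc at chr2:126618679-126618928.
Mcpt1: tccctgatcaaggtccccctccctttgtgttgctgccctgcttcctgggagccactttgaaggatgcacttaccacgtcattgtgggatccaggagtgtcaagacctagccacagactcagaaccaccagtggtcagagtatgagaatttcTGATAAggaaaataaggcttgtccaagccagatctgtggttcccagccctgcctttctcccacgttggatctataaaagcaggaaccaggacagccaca
Mcpt4: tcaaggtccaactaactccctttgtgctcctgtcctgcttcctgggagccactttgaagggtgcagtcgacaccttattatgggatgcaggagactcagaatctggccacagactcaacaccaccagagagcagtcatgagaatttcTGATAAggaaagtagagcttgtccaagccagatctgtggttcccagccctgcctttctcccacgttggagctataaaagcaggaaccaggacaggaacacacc
Cma1: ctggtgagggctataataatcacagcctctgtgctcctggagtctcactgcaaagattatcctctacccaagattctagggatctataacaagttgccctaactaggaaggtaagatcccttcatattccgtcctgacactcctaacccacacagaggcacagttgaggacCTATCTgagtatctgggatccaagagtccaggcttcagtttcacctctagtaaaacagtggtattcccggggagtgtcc
Hdc: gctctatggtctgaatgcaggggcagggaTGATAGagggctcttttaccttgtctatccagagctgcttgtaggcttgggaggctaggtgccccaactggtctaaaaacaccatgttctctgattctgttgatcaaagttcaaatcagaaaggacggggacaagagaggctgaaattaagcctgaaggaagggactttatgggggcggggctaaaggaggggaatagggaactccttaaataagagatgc
The Mcpt1 and Mcpt4 windows were near copies, with 209 identical bases over 258 alignment columns (81.0%) and a longest shared run of 53 bases. Mcpt1 and Cma1 shared 48.5% of columns and no run above 10 bases. A GATA motif was found in 7 of 7 member windows and in 26.5% of 32851 promoter windows of the same length. The motif letters CATGTG or CACGTG, bound by MITF, were found in 1 of 7 (Fcer1a), against 17.6% of all windows. GATA factors and MITF are known regulators of mast cell genes, and a match is a description of the sequence, not a binding site. Reads of Mcpt1 and Mcpt2 can be told from other genes, with no 50-base stretch of either shared with another annotated gene. For Mcpt4 such shared stretches made up 5.48% (mostly with Cma2) and for Cma1 5.38%, so a small part of their low counts could belong to a copy.

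Mcpt1 (ENSMUSG00000022227, chr14:56017971-56020384) encodes the chymase that marks mucosal mast cells. Its FPKM was 0.476, 10.4 and 4.61 in Gm31629-/- mice 1 to 3 and 9.99, 6.75 and 10.4 in WT mice 1 to 3. Gm31629-/- mouse 1 lay far below the other 5 mice, mouse 3 lay below every WT mouse, and mouse 2 was level with the highest WT mouse, so the groups overlapped. The low value rested on 9 fragments (95% exact Poisson interval 4.12 to 17.1, counting error only) where mouse 2 had 198. The means were 5.17 ± 5.0 (SD, n = 3) and 9.03 ± 1.98 (SD, n = 3). The log2 fold change was -1.12 (SE 0.67, limma adjusted p = 0.213), with a 95% interval of -2.70 to 0.46. Without Gm31629-/- mouse 1 it was -0.30 (SE 0.34, limma adjusted p = 0.50), and without mouse 2 it was -1.78 (SE 0.54, limma adjusted p = 0.0434), which would count as a call, as it would for 4.69% of all tested genes called lower without that mouse. The size of the Mcpt1 difference and its call thus depended on which mice were included. Its sign did not turn when each mouse was left out (-1.78 to -0.30). In bulk tissue, fewer cells of a type and less RNA per cell cannot be told apart.

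Mcpt2 (ENSMUSG00000022226, chr14:56042041-56044642) encodes the second mucosal protease of the cluster. It stood at 1.01, 5.86 and 4.37 FPKM in Gm31629-/- mice and at 6.62, 2.63 and 6.30 in WT mice. The lowest value was again in Gm31629-/- mouse 1, while the other Gm31629-/- mice lay inside the WT range. The log2 fold change was -0.48 (SE 0.50, limma adjusted p = 0.459) with a 95% interval of -1.66 to 0.69. Without Gm31629-/- mouse 1 it turned to 0.049 (limma adjusted p = 0.923).

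**Figure D1:**
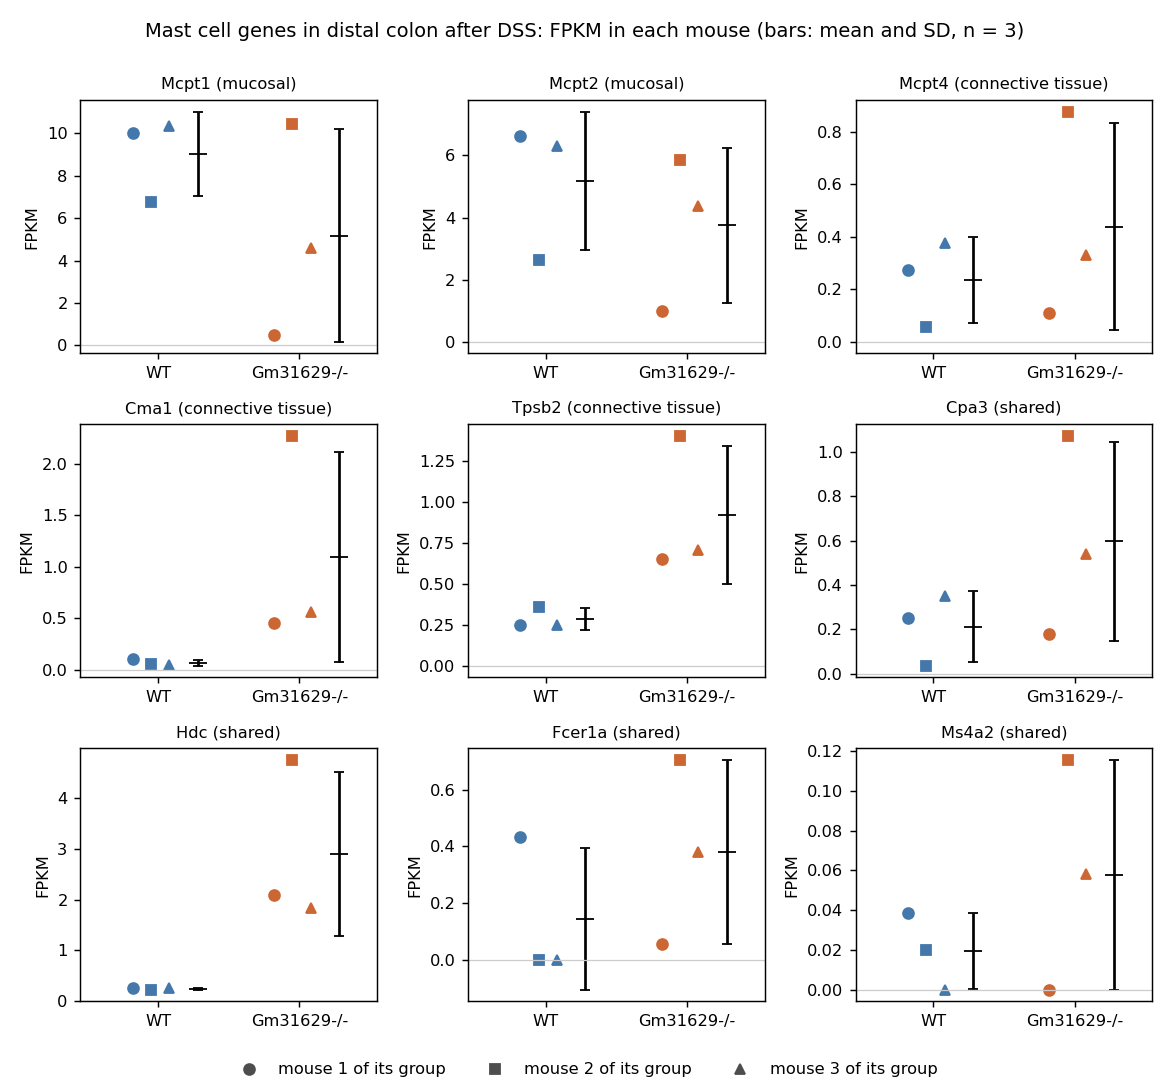
FPKM of each of the 9 mast cell genes (vertical axes, linear, 1 panel per gene) in WT mice (blue) and Gm31629-/- mice (orange), with a symbol per mouse and the mean and SD of 3 mice beside them. Mcpt1 and Mcpt2 are lowest in Gm31629-/- mouse 1, while Cma1, Tpsb2 and Hdc are higher in every Gm31629-/- mouse than in any WT mouse.

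The connective tissue proteases were scarce in WT colon, and Cma1 and Tpsb2 were higher in each Gm31629-/- mouse than in any WT mouse. Cma1 (ENSMUSG00000022225, chr14:55941451-55944675), a chymase stored in connective tissue mast cell granules, stood at 0.455, 2.27 and 0.558 FPKM in Gm31629-/- mice and at 0.101, 0.0517 and 0.0495 in WT mice. All 3 Gm31629-/- mice lay above all 3 WT mice, with mouse 2 the highest. The WT values rested on 2, 1 and 1 fragments, and those of the Gm31629-/- mice on 9, 45 and 11. The ratio of summed fragments was 16.3 with a counting interval of 6.06 to 61.5, which leaves out the spread between mice. Such intervals also lay above 1 for Hdc, Tpsb2, Cpa3 and Fcer1a, and below 1 for Mcpt1 (0.494 to 0.661) and Mcpt2 (0.597 to 0.865). Only those of Mcpt4 and Ms4a2 included 1, so this interval does not set Cma1 apart. On the log2(FPKM + 1) scale, which understates the change of low genes, Cma1 differed by 0.87 (SE 0.31, limma adjusted p = 0.0559) and was not called. Without Gm31629-/- mouse 1 the difference was 1.08 (SE 0.30, limma adjusted p = 0.0317), past both thresholds, as 18.5% of all tested genes were called higher without that mouse. Without mouse 2 it was 0.50 (SE 0.13, limma adjusted p = 0.0274), short of the fold threshold. Cma1 passed the filter only through the Gm31629-/- mice, and in a fit without the filter its limma adjusted p was 0.0918.

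Tpsb2 (ENSMUSG00000033825, chr17:25366305-25369098), the tryptase also known as mMCP-6, stood at 0.654, 1.40 and 0.705 FPKM in Gm31629-/- mice and at 0.250, 0.360 and 0.246 in WT mice. Again the groups did not overlap, and mouse 2 was the highest. The log2 fold change was 0.56 (SE 0.19, limma adjusted p = 0.0469), short of the fold threshold, and 28.9% of all tested genes were higher by the adjusted p alone. It was 0.66 without Gm31629-/- mouse 1 (limma adjusted p = 0.0330) and 0.39 without mouse 2 (limma adjusted p = 0.0678). Leaving out any single WT mouse raised the limma adjusted p to between 0.0889 and 0.137, so this difference stood at the edge of the test. With a pseudocount of 0.1 Cma1 and Tpsb2 were both called higher, and likewise with limma's voom on the recovered fragments, and these settings called 25.2% and 24.9% of all tested genes higher. Both settings kept the filter, which Cma1 and Tpsb2 passed only through the Gm31629-/- mice, so these calls are a description.

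Mcpt4 (ENSMUSG00000061068, chr14:56059629-56062313), the main functional counterpart of human chymase, was close to the floor. Its FPKM was 0.110, 0.876 and 0.330 in Gm31629-/- mice and 0.273, 0.0561 and 0.376 in WT mice, from 2, 16 and 6 against 5, 1 and 7 fragments. Of the Gm31629-/- mice, mouse 2 alone lay above the WT range. Mcpt4 did not pass the mean filter, and in a fit without the filter its log2 fold change was 0.19 (SE 0.21, limma adjusted p = 0.520). Among all tested genes 36.3% had Gm31629-/- values wholly above the WT values, and 3 of the 5 tested members did (Cma1, Tpsb2 and Hdc). These 3 passed the filter only through the Gm31629-/- mice, so nothing is read from that count. In the 4 untested members the groups overlapped.

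The balance between the chymases can be read within a library, where it does not depend on depth. It was taken as the log2 ratio of Mcpt4 plus Cma1 to Mcpt1 plus Mcpt2. This ratio was -1.39, -2.37 and -3.34 in Gm31629-/- mice 1 to 3 and -5.47, -6.44 and -5.29 in WT mice. All 3 Gm31629-/- libraries lay above all 3 WT libraries. The means were -2.37 ± 0.97 (SD, n = 3) and -5.74 ± 0.62 (SD, n = 3), a difference of 3.37. It is given as a description, without a test. Expressed as a share, the connective tissue pair made up 27.6%, 16.2% and 8.99% of chymase FPKM in Gm31629-/- mice and 2.20%, 1.14% and 2.49% in WT mice. The connective tissue pair had more fragments in each Gm31629-/- library (11, 61 and 17) than in any WT library (2 to 8). The mucosal pair differed among the Gm31629-/- mice. In mouse 1 it had 27 fragments, in mouse 2 303 and in mouse 3 165, where the WT libraries had 171 to 315. With Mcpt4 over Mcpt1 alone, which leaves out Cma1, the difference was 2.46 and the groups did not overlap (-2.12, -3.58 and -3.80 against -5.19, -6.91 and -4.78). That ratio rested on 2, 16 and 6 Mcpt4 fragments against 5, 1 and 7. In Gm31629-/- mice 1 and 3 Mcpt4 lay inside the WT range, and Mcpt1 below it, with 9 Mcpt1 fragments in mouse 1.

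**Figure D2:**
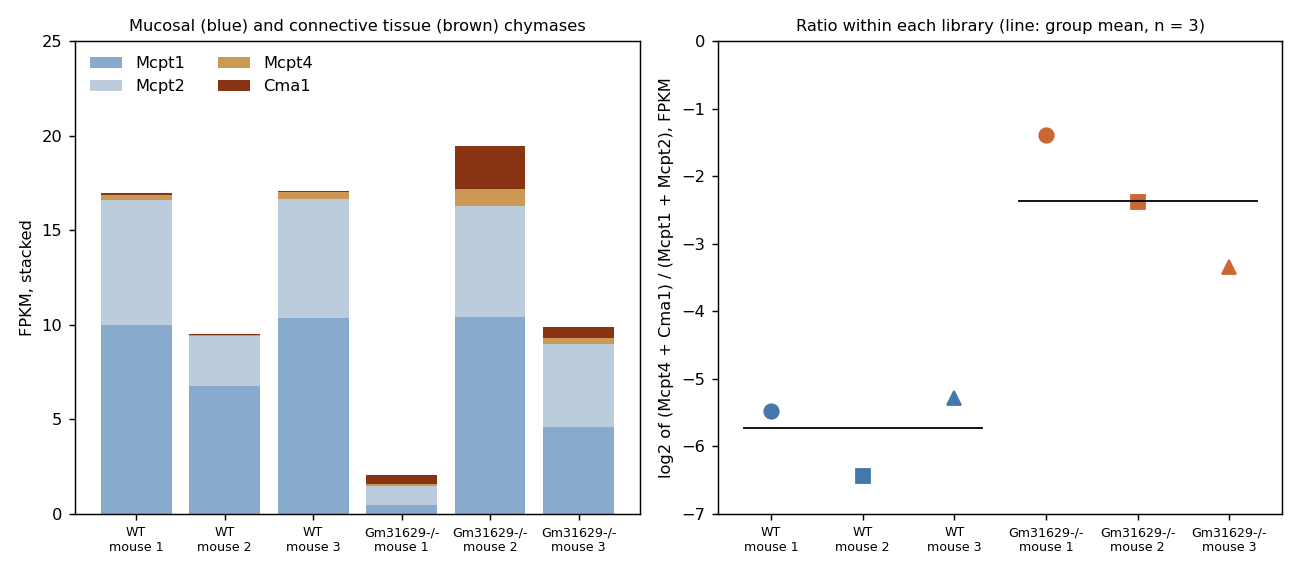
Left, stacked FPKM of Mcpt1, Mcpt2 (blue), Mcpt4 and Cma1 (brown) in each mouse. Right, the log2 ratio of the connective tissue pair to the mucosal pair in each library, with a line at each group mean, where the Gm31629-/- libraries run from -3.34 to -1.39 and the WT libraries from -6.44 to -5.29.

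Hdc (ENSMUSG00000027360, chr2:126593667-126619299), histidine decarboxylase, makes histamine from histidine and was the only member called. Hdc passed the filter only through the Gm31629-/- mice, and in a fit without the filter its limma adjusted p was 0.0146. Its FPKM was 2.08, 4.77 and 1.84 in Gm31629-/- mice and 0.245, 0.217 and 0.250 in WT mice. The WT mice were almost level, and the lowest Gm31629-/- mouse lay well above them. These values rested on 216 to 562 fragments per Gm31629-/- library and 25 to 30 per WT library, with a ratio of summed fragments of 12.2 (counting interval 9.76 to 15.4). The log2 fold change was 1.58 (SE 0.28, limma adjusted p = 0.00452), with a 95% interval of 0.93 to 2.23. It was 1.71 without Gm31629-/- mouse 1 (SE 0.30, limma adjusted p = 0.00615), and over the 6 fits that left out 1 mouse each it ran from 1.26 to 1.77. Hdc is not particular to mast cells. The summed FPKM of 8 neutrophil markers, a cell type that can also use Hdc, was 76.8 to 240.0 in Gm31629-/- mice and 4.36 to 7.59 in WT mice. All 8 were called higher, against 18.4% of all tested genes, and 3 of the 8 had a WT mean under 0.5 FPKM. The highest neutrophil sum was in Gm31629-/- mouse 1 and the highest Hdc in mouse 2. Sums of macrophage markers (347, 683 and 331 in Gm31629-/- mice 1 to 3) and of general leukocyte markers (139, 226 and 141) were highest in mouse 2. The part of neutrophils or other leukocytes in the Hdc difference was not tested.

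**Figure D3:**
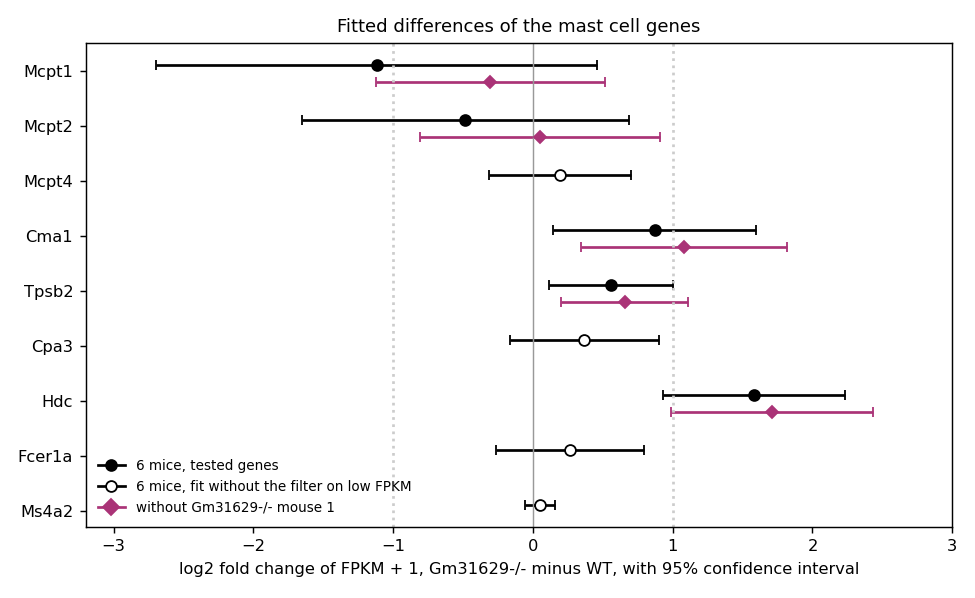
Fitted log2 fold change of FPKM + 1 (horizontal axis, Gm31629-/- minus WT) with its 95% confidence interval for each mast cell gene, from 6 mice (black circles, open where the gene did not pass the filter) and without Gm31629-/- mouse 1 (purple diamonds). The interval of Hdc runs from 0.93 to 2.23, and those of Mcpt1 and Mcpt2 include 0 in both fits.

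Cpa3 (ENSMUSG00000001865, chr3:20215620-20242181), the carboxypeptidase stored with the chymases in the granule, stood at 0.179, 1.07 and 0.538 FPKM in Gm31629-/- mice and 0.249, 0.0366 and 0.351 in WT mice. Mice 2 and 3 of the Gm31629-/- group lay above the WT range and mouse 1 lay inside it. It did not pass the filter, and its log2 fold change without the filter was 0.37 (SE 0.22, limma adjusted p = 0.277).

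The receptor subunits were at the limit of detection. Fcer1a (ENSMUSG00000005339, chr1:173221284-173227214), which binds IgE, stood at 0.0545, 0.706 and 0.382 FPKM in Gm31629-/- mice and at 0.433, 0 and 0 in WT mice. The WT value came from 8 fragments in 1 mouse, and a count of 0 in the other WT libraries allows up to 3 fragments, or 0.167 and 0.160 FPKM. Ms4a2 (ENSMUSG00000024680, chr19:11615523-11623719), the signal-amplifying beta subunit, had 0, 6 and 3 fragments in Gm31629-/- mice and 2, 1 and 0 in WT mice. In a fit without the filter the limma adjusted p was 0.424 for Fcer1a and 0.433 for Ms4a2, so neither subunit differed by that test. The ratio of summed fragments was 2.63 for Fcer1a (counting interval 1.12 to 6.86) and 3.00 for Ms4a2 (0.750 to 17.3). These intervals leave out the spread between mice, which was wide for Fcer1a.

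Of the 9 members, 8 had their highest value in Gm31629-/- mouse 2, and for 8 the lowest value of the Gm31629-/- group was in mouse 1. The order of levels, which compares genes per length, differed by genotype. In WT mice Mcpt1 came first and Mcpt2 second, and they made up 58.6% and 33.6% of the members' summed mean FPKM. Tpsb2 (0.285 FPKM), Hdc (0.238), Mcpt4 (0.235), Cpa3 (0.212) and Fcer1a (0.144) followed far below. Within those 5 genes neighbours overlapped over the mice, as did Fcer1a and Cma1 (0.0673), whereas Mcpt1 with Mcpt2, Mcpt2 with Tpsb2, and Cma1 with Ms4a2 (0.0194) did not. In Gm31629-/- mice Mcpt1 and Mcpt2 made up 33.8% and 24.5%, and Hdc at 2.90 FPKM and Cma1 at 1.09 came next. There every pair of neighbours in the order overlapped.

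Other genes of mast cell function were taken as lists, and each count of calls stands against 18.4% of all tested genes called higher and 4.64% lower. A gene whose WT mean lay under 0.5 FPKM was tested only through the Gm31629-/- mice, where it was high, so such calls are a description. Of 11 granule protease and matrix genes 5 were tested and 1 was called higher. This was Srgn, which encodes the proteoglycan serglycin that holds proteases in granules of most blood cells, at 2.52 ± 0.56 FPKM in WT mice and 35.3 ± 14.3 in Gm31629-/- mice (SD, n = 3, log2 fold change 3.31, limma adjusted p = 0.000354). The tryptase Tpsg1 was at 16.8 to 34.2 FPKM over the 6 libraries and was not called (log2 fold change -0.35, limma adjusted p = 0.248). Of the pathway genes under the filter, Tpsab1, Cma2, Mcpt9, Mcpt8, Prss34, Ctsg, Mrgprb2, Gata1, Il13, Epx, Ccr3 and Cd200r3, chosen after their values were seen, did not exceed 0.472 FPKM in any library. Cysltr1, Cysltr2, Ltc4s, Ighe, Il9r and Hrh2, also under the filter, did exceed it. In a fit without the filter Ltc4s did not differ (limma adjusted p = 0.880). The others were higher in Gm31629-/- mice by 0.37 to 0.78 on the log2 scale (limma adjusted p from 0.00668 to 0.0417), short of the fold threshold.

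Of 12 genes of IgE receptor signalling 11 were tested, 6 were called higher and none lower, against 18.4% and 4.64% of all tested genes. Of these 6 calls 3 (Lat, Lat2 and Btk) had a WT mean under 0.5 FPKM. The median log2 fold change in the list was 1.08 against 0.15 over all tested genes. Fcer1g, the gamma chain that this receptor shares with other Fc receptors of myeloid cells, went from 6.94 to 62.4 FPKM (log2 fold change 2.83, limma adjusted p = 0.00162). The kinase Fyn rose by 2.29 and the phosphatase Inpp5d by 1.79 on the log2 scale (limma adjusted p = 0.000315 and 0.000860). So the widely used gamma chain was called higher, while the alpha and beta subunits of mast cells and basophils stayed below 0.71 FPKM in every library.

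For histamine, 7 of 8 symbols were listed, 4 were tested and 2 were called higher, against 18.4% of all tested genes. Both had WT means under 0.5 FPKM and passed the filter only through the Gm31629-/- mice, so their calls carry no weight as a count. Slc18a2, which loads histamine and other monoamines into vesicles, went from 0.168 to 1.81 FPKM (log2 fold change 1.25, limma adjusted p = 0.00269). Hnmt, which inactivates histamine inside cells, went from 0.0506 to 1.38 (log2 fold change 1.12, limma adjusted p = 0.0127), and without Gm31629-/- mouse 1 its log2 fold change was 0.84, short of the fold threshold. Aoc1, the extracellular diamine oxidase of the gut epithelium, was at 41.9 ± 32.7 and 58.5 ± 10.3 FPKM in Gm31629-/- and WT mice (SD, n = 3) and was not called (limma adjusted p = 0.261).

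Of 9 lipid mediator genes 6 were tested and 4 were called higher, against 18.4% of all tested genes, and 2 of the 4 (Alox5ap and Hpgds) had a WT mean under 0.5 FPKM. Ptgs1, the constitutive cyclooxygenase, had a log2 fold change of 2.60 (limma adjusted p = 0.000326), and Hpgds, which makes prostaglandin D of mast cells and other cells, 1.88 (limma adjusted p = 0.00927). Ptgs2, the inducible cyclooxygenase, was at 1.90, 32.5 and 18.0 FPKM in Gm31629-/- mice 1 to 3 and at 0.685 to 1.31 in WT mice. Its log2 fold change of 2.62 (limma adjusted p = 0.0362) rested on a low mouse 1 and high mice 2 and 3. Without mouse 1 it was 3.66 (limma adjusted p = 0.000452), and leaving out any other single mouse, WT mice included, raised the limma adjusted p to between 0.0780 and 0.115.

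Of 22 genes of mast cell identity, growth and activation 19 were listed, 14 were tested and 6 were called higher, against 18.4% of all tested genes, and 1 of the 6 (Gata2) had a WT mean under 0.5 FPKM. Il33, an alarmin that activates mast cells, had a log2 fold change of 2.62 (limma adjusted p = 0.0216, but 0.0707 without WT mouse 1 and 0.0814 without WT mouse 3). It was highest in Gm31629-/- mouse 2, at 39.0 FPKM against 5.63 and 5.85 in mice 1 and 3, and without mouse 2 the log2 fold change was 1.76 (limma adjusted p = 0.0107). Tgfb1, a cytokine that promotes the mucosal mast cell type, had 2.16 (limma adjusted p = 0.00422), and Itgb7, an integrin chain used in homing to the gut, 1.50 (limma adjusted p = 0.00334). Kit, the receptor for stem cell factor and also a marker of the pacemaker cells of the gut muscle, was at 5.36 ± 2.27 FPKM in Gm31629-/- mice and 5.01 ± 0.40 in WT mice (SD, n = 3) and was not called (log2 fold change 0.018, limma adjusted p = 0.963). Kitl, which encodes stem cell factor, was called higher (log2 fold change 1.28, limma adjusted p = 0.0239). Without Gm31629-/- mouse 1 its log2 fold change was 0.92, short of the fold threshold. Il1rl1, the IL-33 receptor, singled out after its values were seen, was at 0.284, 29.4 and 14.7 FPKM in Gm31629-/- mice and 2.02, 4.95 and 2.82 in WT mice, so like Mcpt1 it was lowest in Gm31629-/- mouse 1. Of 8 basophil and eosinophil genes 3 were tested and 1 was called higher, Prg2, the eosinophil major basic protein, with a log2 fold change of 1.04 (limma adjusted p = 0.00273). It too passed the filter only through the Gm31629-/- mice, with means of 0.128 FPKM in WT and 1.32 in Gm31629-/- mice.

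**Figure D4:**
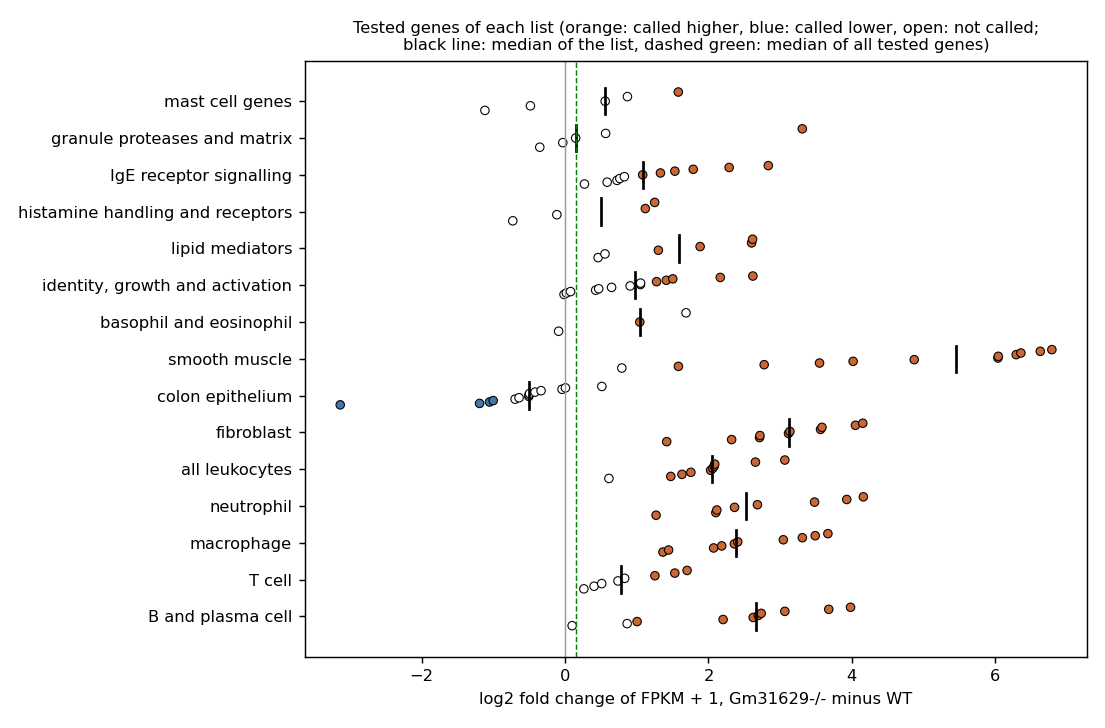
Log2 fold change of FPKM + 1 (horizontal axis, Gm31629-/- minus WT) of each tested gene in the mast cell, pathway and cell type lists (rows), with called genes filled, the list median as a black line and the median of all tested genes, 0.15, as a dashed line. The mast cell genes scatter on both sides of 0, while the smooth muscle, fibroblast and leukocyte lists lie to the right.

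The make-up of the tissue differed between the groups alongside these genes. The summed FPKM of 12 smooth muscle markers was 1604 to 2618 in Gm31629-/- mice and 28.3 to 54.3 in WT mice, with 11 of 12 called higher. Fibroblast markers summed to 233 to 649 against 23.2 to 42.7 (10 of 10 called higher), and 14 colon epithelium markers to 7997 to 9511 against 12898 to 14040 (4 called lower). The epithelium markers did not move as 1 set, and 10 were not called. In 9 the Gm31629-/- values lay wholly below the WT values, and in 1 wholly above. Mean Krt8 was 2042 FPKM in Gm31629-/- and 4198 in WT mice, whereas Epcam was 1109 and 1104, and Cdh1 395 and 405. None of these defining markers was at 0 in all libraries of a group. Connective tissue mast cells lie in the layers that hold smooth muscle and fibroblasts, mucosal mast cells in those that hold epithelium, and the part of tissue make-up in the chymase values was not tested. Markers of leukocytes in general summed to 139 to 226 against 32.1 to 36.7 (9 of 10 called higher), and of macrophages to 331 to 683 against 32.6 to 39.9 (10 of 10). T cell markers summed to 20.3 to 37.8 against 8.45 to 12.7 (3 of 8 tested), and B and plasma cell markers to 1215 to 2521 against 187 to 231 (8 of 10). Over all tested genes 18.4% were called higher and 4.64% lower. Of the higher calls, 2 smooth muscle, 2 fibroblast, 1 leukocyte, 4 macrophage and 2 B and plasma cell markers had a WT mean under 0.5 FPKM. Those genes passed the filter only through the Gm31629-/- mice, so their calls are a description.

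Set against the 10 leukocyte genes, the members took another order. Per 100 FPKM of that list, Mcpt1 and Mcpt2 together were 1.07, 7.21 and 6.36 in Gm31629-/- mice and 46.5, 29.2 and 45.3 in WT mice. Every Gm31629-/- mouse lay below every WT mouse, mice 2 and 3 as well as mouse 1. The connective tissue pair Mcpt4 and Cma1 was 0.406, 1.39 and 0.628 against 1.05, 0.335 and 1.16, so the groups overlapped. Tpsb2 was 0.469, 0.621 and 0.499 against 0.699, 1.12 and 0.670, below the WT range, although its FPKM lay above it. Hdc was 1.50, 2.11 and 1.30 against 0.686, 0.676 and 0.680 and stayed higher in every Gm31629-/- mouse. When each library was scaled to the leukocyte list and refitted, Mcpt1 had a log2 fold change of -3.14 (limma adjusted p = 3.67e-05) and Mcpt2 of -2.43 (limma adjusted p = 9.25e-05). This scaling moved the median log2 fold change of all tested genes from 0.15 to -1.75 and called 69.1% of all tested genes lower, so these lower calls are not particular to the mucosal genes.

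**Figure D5:**
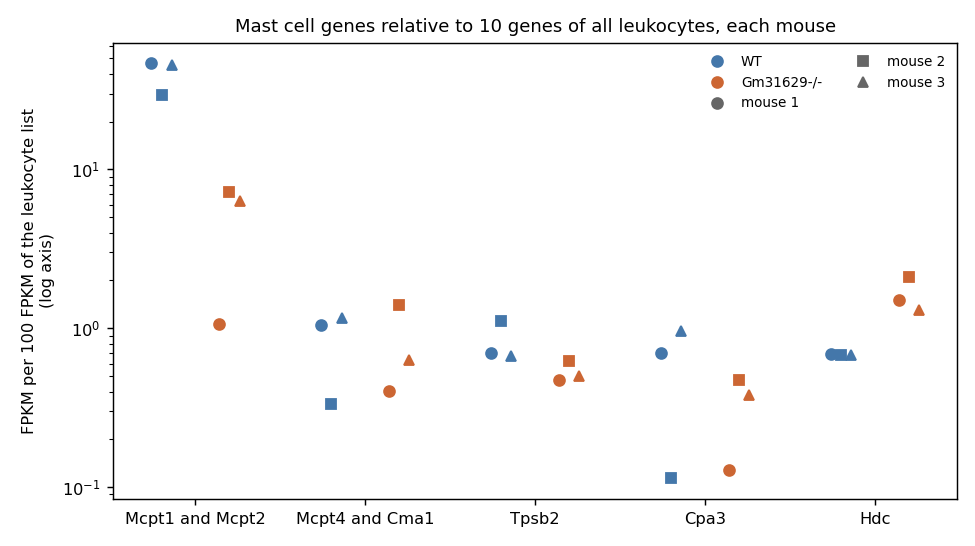
FPKM of mast cell genes per 100 FPKM of 10 leukocyte genes (vertical axis, log scale) in each WT mouse (blue) and Gm31629-/- mouse (orange). Mcpt1 and Mcpt2 run from 1.07 to 7.21 in Gm31629-/- mice and from 29.2 to 46.5 in WT mice, Mcpt4 and Cma1 overlap, and Hdc is higher in Gm31629-/- mice.

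The genes whose profile over the 6 mice was most like that of 3 members were found by the root mean square difference of centred log2(FPKM + 1) values. For Mcpt1 they were Plet1os (0.24), Plek2 (0.33) and Prss27 (0.34), where the profile of Mcpt1 itself spread by 1.05. All 3 were lowest in Gm31629-/- mouse 1. Prss27, for example, was at 0.347, 6.96 and 1.69 FPKM in Gm31629-/- mice and 4.96, 5.90 and 7.52 in WT mice. For Mcpt4 they were Aldh7a1, Gfra3 and Ssbp4 (0.040 to 0.043, against a spread of 0.27), and for Cpa3 Cyb5r1, Map1s and Akt2 (0.060 to 0.076, against 0.32). These last profiles are shallow, and a small difference from them says little.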

How the data were processed

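The authors deposited 1 table of FPKM values for 27546 genes, 1 column per library. Per the submitters' processing notes, HISAT2 2.1.0, HTSeq 0.6.0 and the GRCm38 build were used. The methods speak of pooled RNA, but the table holds 6 separate columns, and these were treated here as separate mice. Groups were taken from the genotype labels. FPKM is divided by gene length and depth, so a count model was not the main test. The fit was made in R 4.3.3 with limma 3.58.1, using log2(FPKM + 1), lmFit and a trended eBayes, and p-values were adjusted by Benjamini-Hochberg over 14657 genes. Symbols and coordinates came from GENCODE M21 (GRCm38), and promoters from RefSeq (GRCm38.p6).

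Depth was estimated from the step of 1 fragment. With annotated gene lengths the recovered fragments summed to 19046400 to 19882700 per library, above the estimated depths. The depths are thus approximate, and the reason for the gap was not tested. In each library 96.3% to 97.2% of the values of at most 20 fragments were whole to within 0.1. For the members the step was sought per gene, taking the largest that made all 6 values whole, so their fragment numbers are the smallest that fit. Intervals and the limit of 3 fragments at a value of 0 cover counting error only. Mice of a group differed beyond sampling noise, with a chi-square of 32.1 to 46.7 per gene among WT and 96.9 to 143 among Gm31629-/- libraries, and each was kept as 1 replicate.

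The members and lists were chosen with earlier results of these data known. All members are named, with the 3 called genes of largest absolute log2 fold change in each pathway list and the 3 genes most like Mcpt1, Mcpt4 and Cpa3. Tpsg1, Aoc1 and Kit, none of them called, and Kitl, called higher, were named outside this rule. Other genes are named only where said. The fit was tested on simulated data. Alternatives were no filter or one at a mean FPKM of 5, a pseudocount of 0.1, 3 scalings (TPM scale, median ratio, leukocyte list), no trend, a replicate block, leaving out each mouse, limma treat, and voom on recovered fragments. Figures were drawn with matplotlib 3.10.9.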

Additional observations from a re-analysis of the deposited data

How the results depend on the processing

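Hdc was called higher in Gm31629-/- mice with limma under every alternative except 3: leukocyte scaling (log2 fold change 0.42, adjusted p = 0.0450), limma treat (adjusted p = 0.319) and a mean FPKM of at least 5, which removed it. The number of members called was 3 with a pseudocount of 0.1 and 3 with voom (Hdc, Cma1 and Tpsb2, all higher), 2 with leukocyte scaling (Mcpt1 and Mcpt2, lower), and 0 with limma treat and with a mean FPKM of at least 5. At an unadjusted p under 0.05, treat had 1 of 5 members and the stricter filter 0 of the 1 it tested. Leaving out each mouse gave 1 to 2 members. Over all genes the 3384 calls became 1449 with the stricter filter, 10642 with leukocyte scaling and 912 with treat, and leaving out each mouse gave 2798 to 3572. The share of calls that were higher was 79.9%, against 70.5% with the median ratio and 4.77% with leukocyte scaling, and the median ratio moved the median log2 fold change of all genes from 0.15 to 0.017. The difference in chymase log2 ratio was 2.46 for Mcpt4 over Mcpt1 and 2.88 to 3.85 when each mouse was left out. Leaving out each mouse gave log2 fold changes of -0.84 to 0.049 for Mcpt2, whose sign turned without Gm31629-/- mouse 1. Leukocyte scaling, which moved the median of all genes to -1.75, turned the signs of Tpsb2 (-0.31) and Itgb7 (-0.48) by its construction. Tpsb2 lost its adjusted p under 0.05 with no filter (0.0620), TPM scale (0.0540) and the median ratio (0.0514). Same-numbered mice did not deviate together (correlations 0.036, -0.11 and 0.014), so the numbers do not pair them, and the replicate block gave 3357 calls and 1 member, with Tpsb2 at an adjusted p of 0.0685. Mcpt4, Fcer1a and Ms4a2 rested on 0 to 16 fragments per library, which limits what could be detected. Fcer1a (21 against 8 fragments in sum) and Cpa3 (50 against 18) also varied between mice.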
